A study of Mus musculus with 12 samples.

Results

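Neurospheres, the floating colonies that neural stem and progenitor cells form in culture, were compared with ependymal cells taken directly from the lateral ventricular wall (LVW) of the adult mouse brain. All 6 arrays of these 2 groups, 3 of neurospheres and 3 of LVW ependymal cells, were used out of 12 in the study. Of the 46632 probes on the array, 10408 carried 1 gene symbol and were detected on at least 3 of the 6 arrays (detection p-value under 0.01), and they represented 8411 of 17711 named genes. All mice were C57Bl/6. The neurospheres were cultured cells derived from ependymal cells of the adult spinal cord (SC), and they were not sorted. The LVW ependymal cells were sorted by flow cytometry as CD133+ and CD24+ cells that lacked CD45 and CD34. Culture, sorting and region of the nervous system therefore differ at once between the groups and cannot be told apart. The 3 arrays of SC ependymal cells, sorted on the same antigens, are the nearest match to the cells of origin, and their levels stand beside those of the 2 groups as a description. Levels in radial glia, sorted from the forebrain at embryonic day 14.5 as CD133+ cells without CD24, CD45 or CD34, are given in a few places. Per the series' design text, each group's 3 arrays come from separate biological replicates.

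Ependymal cells form the ciliated lining of the ventricles and of the central canal. Their motile cilia are built on a microtubule axoneme whose dynein arms, radial spokes and central pair produce the beat, and the program is switched on by transcription factors such as FOXJ1 and the RFX family. These cells rarely divide in the healthy adult. Neurospheres are usually grown with EGF and FGF2, which act through receptor tyrosine kinases and the ERK cascade, and their cells divide and can give rise to astrocytes, oligodendrocytes and neurons.

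Neurosphere replicate 3 stood apart from the other arrays of its group. Its mean raw signal was 654.1, against 198.6 and 247.8 on neurosphere replicates 1 and 2, and it detected 16175 probes, against 11434 and 11674. Across the 8411 genes it correlated with neurosphere replicates 1 and 2 at r = 0.88 and 0.85, while those 2 correlated at 0.97. The LVW arrays were more even in brightness, with 11660 to 12132 probes detected, but correlated with each other only at 0.817 to 0.862. Each array is therefore given on its own for the genes described in full, and counts that depend on 1 array are given without it.

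Prom1, the gene of the sort antigen CD133, had log2 signals of 9.32, 9.71 and 8.82 in neurospheres, against 13.23, 12.88 and 13.51 in LVW cells. It was lower in neurospheres by a log2 change of -3.92 ± 0.41 (SE, adjusted p = 0.00049). Cd24a was detected on 0 neurosphere arrays and on all 3 LVW arrays, with levels of 4.51, 4.92 and 4.76 in neurospheres and 9.45, 8.31 and 6.99 in LVW cells. It was at least 6.30-fold lower in neurospheres (adjusted p = 0.00606). Adjusted p-values here are from limma with Benjamini-Hochberg adjustment over all 8411 genes, and a gene is called when its value is under 0.05. "At least" marks a gene that was detected on 0 arrays of the lower group, in which case the fold is set against the weakest signal detected on those arrays. Ptprc, which encodes CD45, and Cd34 had no probe that met the detection rule.

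Of the 8411 genes, 2092 were called (24.9%), of which 969 were higher in neurospheres (11.5%) and 1123 lower (13.4%). The median log2 change over all genes was 0.17. All called genes changed by at least 1 on the log2 scale, so that a gene not called is not shown to be equal in the groups. The 3 arrays of one group all lay above or all below those of the other for 42% of genes, with neurospheres higher for 22.7% and lower for 19.2%. At an adjusted p under 0.01, 1110 genes were called, and 783 called genes were detected on all 6 arrays. The number of calls depended on the neurosphere arrays. It was 1275 without neurosphere replicate 1 and 1307 without replicate 2, and the genes called higher then numbered 483 and 500. Without replicate 3 it was 2366. Among the genes called higher, 319 were detected on all 3 neurosphere arrays and on 0 LVW arrays. Of these 319, SC ependymal cells detected 33 on all 3 arrays and 160 on none, and 53 were detected in neither SC ependymal cells nor radial glia. In the other direction, 363 genes called lower were detected on 0 neurosphere arrays and on all 3 LVW arrays. SC ependymal cells detected 226 of these 363 on all 3 arrays and 68 on none.

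**Figure D1:**
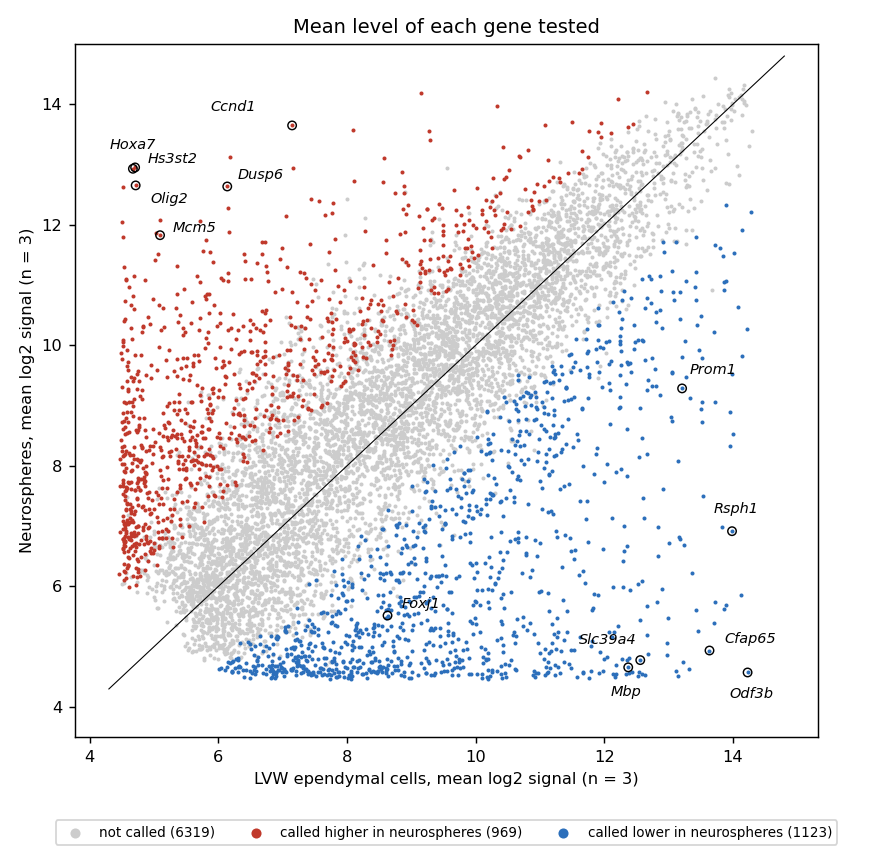
Mean log2 signal of each of the 8411 genes tested in neurospheres (vertical axis) and LVW ependymal cells (horizontal axis), 3 arrays each, with the line of equal levels. Red points are the 969 genes called higher in neurospheres and blue points the 1123 called lower, and circles mark genes described in the text. Many called genes lie along the edges at about 4.5, the level of an undetected probe.

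The lower genes were led by those of the motile cilium. Odf3b, of the outer dense fibre protein family, had levels of 4.57, 4.58 and 4.57 in neurospheres and 14.21, 14.33 and 14.14 in LVW cells, and was at least 397-fold lower (adjusted p = 2.41e-05). The arrays of a group differed by less than 0.2 on the log2 scale, and the groups lay far apart. In bulk RNA such as this, fewer cells of a type and less RNA per cell cannot be told apart. The next largest bounds were those of Cfap65 (at least 264-fold lower), Cfap161 (212-fold) and Cfap43 (198-fold), which encode cilia and flagella associated proteins. Plac9a and 1700016K19Rik were at least 187-fold and 184-fold lower. All 6 genes of largest bound were detected on every SC ependymal array, with mean levels from 11.11 for Plac9a to 14.14 for Odf3b.

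Among lower genes still detected on all 6 arrays, the largest changes were those of Erich2, Rsph1, Capsl, Meig1, Morn5 and Dnaic1. Rsph1, which encodes a head protein of the radial spoke, had levels of 6.64, 6.35 and 7.76 in neurospheres and 14.09, 14.02 and 13.86 in LVW cells. Its log2 change was -7.07 ± 0.47 (adjusted p = 6.66e-05). Dnaic1, an intermediate chain of the outer dynein arm, had 6.02, 6.49 and 7.85 in neurospheres, against 13, 13.16 and 13.40 in LVW cells. It fell by 6.40 ± 0.53 on the log2 scale (adjusted p = 0.000177). For both genes neurosphere replicate 3 was the highest array of its group and still lay far below the LVW arrays. Erich2 changed by -7.14 ± 0.35 and Capsl by -6.94 ± 0.45. Meig1, needed for sperm formation in the mouse, changed by -6.84 ± 0.41, and Morn5 by -6.50 ± 0.35.

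A list of 61 genes of the motile axoneme was read as a whole. Of its 38 members tested, 36 were called lower in neurospheres (94.7%, against 13.4% of all genes) and 0 higher, with a median log2 change of -5.35 against 0.17 over all genes. With genes detected on 0 arrays of one group set at their bounds, the medians were -5.00 and 0.16. LVW arrays detected 40 to 44 of the 51 list members on the array and neurosphere arrays 14 to 24. Members detected on 0 neurosphere arrays met the detection rule through the LVW arrays alone. The share called and the median were therefore in part set by that rule. No alternative gave fewer than 35 lower members. Cfap45, which lies inside the doublet microtubules, had levels of 5.04, 5.09 and 6.07 in neurospheres and 13.52, 13.94 and 13.66 in LVW cells, and changed by -8.31 ± 0.43 (adjusted p = 3.17e-05). Tekt1, a tektin filament protein, changed by -7.92 ± 0.41 (adjusted p = 3.17e-05). Ccdc113, a coiled-coil protein of cilia, changed by -8.20 ± 0.39. Hydin, of the central pair, was at least 25.3-fold lower, and Zmynd10, which is needed to assemble dynein arms, at least 111-fold lower. The smallest called change was that of Nme7 (-2.21 ± 0.58). The 2 members not called were Armc4 (-0.19 ± 0.36), a dynein docking protein detected on 1 neurosphere and 2 LVW arrays, and the dynein assembly factor Dnaaf1 (-0.39 ± 0.69). Summed over the 51 list members on the array, the signal lay between 6055 and 11043 in neurospheres and between 190819 and 202697 in LVW cells. SC ependymal cells had 173468 to 180063, so that the cells of the same origin as the neurospheres carried these transcripts at a level near that of LVW cells.

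**Figure D2:**
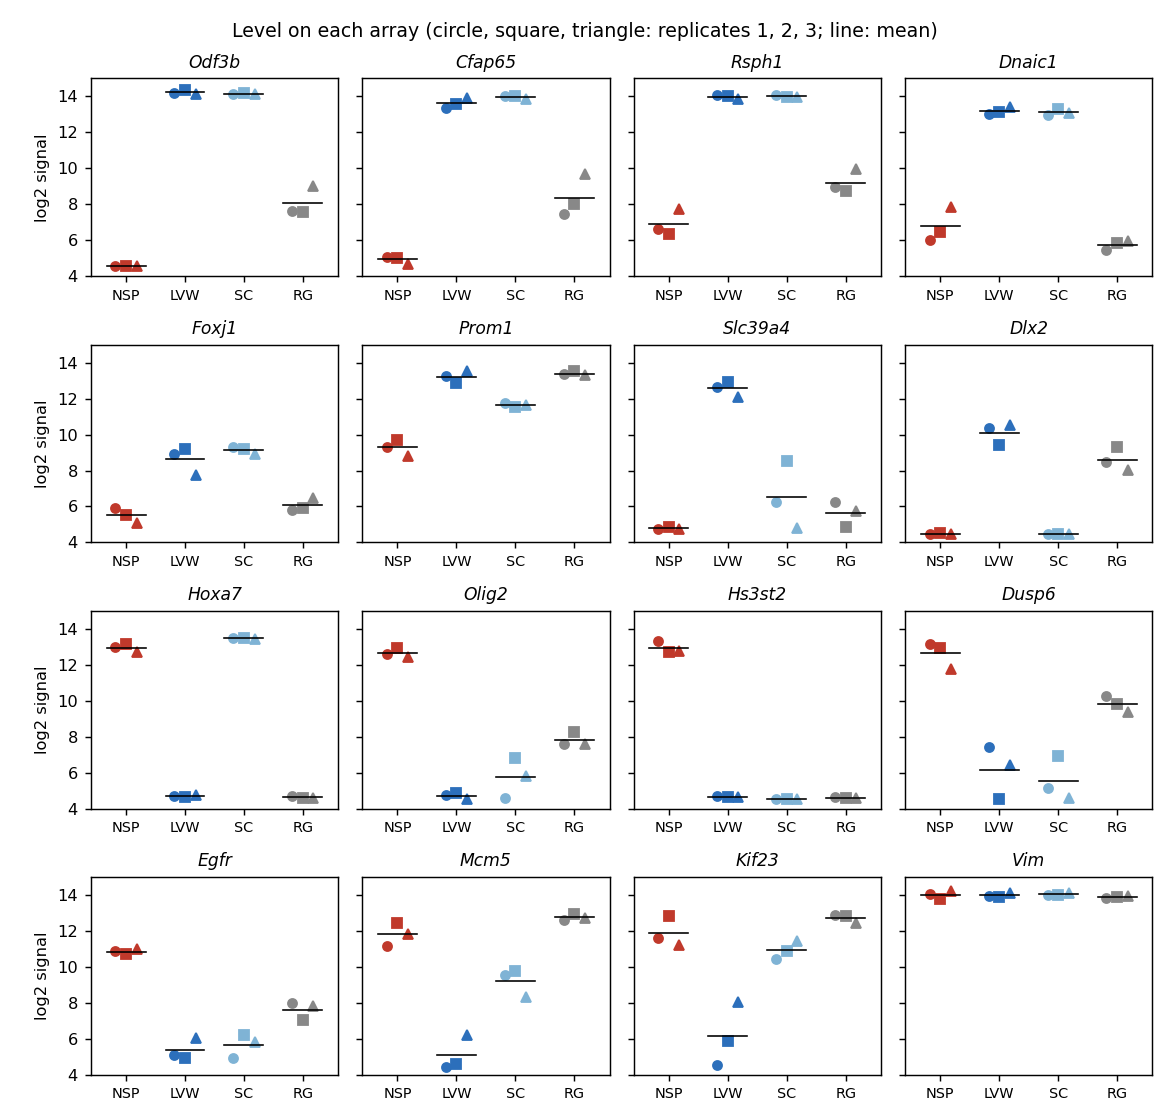
Log2 signal of 16 genes on every array of the study, in neurospheres (NSP), LVW ependymal cells (LVW), SC ependymal cells (SC) and radial glia (RG), with a symbol for each replicate and a line at the group mean. The cilia genes Odf3b, Cfap65, Rsph1 and Dnaic1 were low in neurospheres and high in both ependymal groups, Hoxa7 was high in neurospheres and SC ependymal cells, and Hs3st2 was high in neurospheres alone among the 4 groups.

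The promoters of cilia genes are shown because RFX factors are known to act through a palindromic X-box near the start site. Of the 36 axoneme genes called lower, 30 had a promoter in the RefSeq table (GRCm38.p6), and 7 of these 30 held a match to the RFX X-box on either strand in the 250 bases upstream of the start site (23.3%). The match was present in 128 of 6904 tested genes with a promoter (1.85%) and in 402 of 27025 promoters of the whole table (1.49%). The 7 genes were Ccdc151, Cfap45, Dnaic1, Dnaic2, Hydin, Spag16 and Tekt2. For the transport genes described below, 3 of 22 held a match. In the promoters of Cfap45 (chr1:172520880-172521129, plus strand) and Dnaic1 (chr4:41569544-41569793, plus strand) the match began 19 bases before the start site. They are printed 5′ to 3′ with the X-box in capitals. A match describes these letters only.
Cfap45: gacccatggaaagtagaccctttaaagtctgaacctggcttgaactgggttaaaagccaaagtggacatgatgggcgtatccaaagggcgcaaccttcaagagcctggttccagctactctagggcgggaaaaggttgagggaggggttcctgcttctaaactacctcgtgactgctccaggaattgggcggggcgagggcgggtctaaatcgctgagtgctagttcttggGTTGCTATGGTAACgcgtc
Dnaic1: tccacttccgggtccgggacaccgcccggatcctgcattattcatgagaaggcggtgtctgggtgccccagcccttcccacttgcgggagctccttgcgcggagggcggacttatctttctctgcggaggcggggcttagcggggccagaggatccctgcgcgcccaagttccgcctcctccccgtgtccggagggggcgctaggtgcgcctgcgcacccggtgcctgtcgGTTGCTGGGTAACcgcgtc

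Regulators of multiciliation moved with the axoneme genes. Of 14 tested members of the list of multiciliation factors and basal body genes, 8 were called lower (57.1%) and 1 higher. The median change was -2.68 (-2.54 with genes at their bounds). Members not detected in neurospheres, such as Trp73, Myb and Pifo, met the detection rule through the LVW arrays alone. The share called was therefore in part set by that rule. Foxj1, the factor that commits a cell to motile cilia, had 5.91, 5.55 and 5.09 in neurospheres and 8.94, 9.20 and 7.75 in LVW cells, and changed by -3.11 ± 0.50 (adjusted p = 0.00399). It was detected on 1 neurosphere array. Rfx2 changed by -4.28 ± 0.37 (adjusted p = 0.000219). Trp73 and Myb, which act upstream of Foxj1 in ciliated epithelia, were at least 23-fold and 12.8-fold lower. Pifo, a protein of the ciliary base, was at least 92.8-fold lower, and Deup1, which builds the deuterosomes that amplify centrioles, at least 7.19-fold lower. The member called higher was Tfdp1, a dimer partner of E2F proteins (2.38 ± 0.61, adjusted p = 0.0261). Its call was lost under 5 alternatives, among them leaving out neurosphere replicate 1, neurosphere replicate 2 or LVW replicate 1, with adjusted p up to 0.15. Here and below, "adjusted p up to" gives the highest value over all alternatives tried. Other RFX factors did not pass the test, with changes of 0.86 ± 0.70 for Rfx3 and 0.98 ± 0.39 for Rfx4.

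Intraflagellar transport, which carries cargo along both motile and primary cilia, changed less. Of 38 tested members of the transport and BBSome list, 25 were called lower (65.8%) and 0 higher, and all 38 had a negative change, with a median of -2.09. The count of lower members was 14 without neurosphere replicate 1 and 16 without neurosphere replicate 2. Kif9, a kinesin of motile cilia, was at least 39.9-fold lower. Ift43 had 9.72, 9.63 and 10.01 in neurospheres and 12.42, 12.77 and 13.03 in LVW cells, and changed by -2.95 ± 0.37 (adjusted p = 0.00127). Ttc8, a BBSome subunit, changed by -3.23 ± 0.40, and B9d1, of the transition zone, by -2.88 ± 0.43. Apart from Kif9, the called changes lay between -1.29 for Kif3a and -3.23 for Ttc8. Neurosphere replicates 1, 2 and 3 detected 30, 29 and 34 of the 41 list members on the array and LVW arrays 36 to 38. For the axoneme list the neurosphere replicates detected 15, 14 and 24 of 51 and LVW arrays 40 to 44.

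Ependymal markers of a separate list, which was not kept free of cilia genes, did not all move together. Of 27 tested, 15 were called lower (55.6%), 2 higher and 10 were not called, with a median of -2.94 (-2.65 with genes at their bounds). The lower members include Prom1 and Cd24a, the genes of antigens on which the LVW cells were sorted. Mia, a small secreted protein, had 6.54, 4.90 and 5.39 in neurospheres and 13.24, 13.51 and 13.52 in LVW cells, and changed by -7.81 ± 0.50 (adjusted p = 5.84e-05). 1110017D15Rik changed by -8.19 ± 0.47 and Fam216b by -6.30 ± 0.39. Clusterin (Clu), a secreted chaperone, changed by -4.32 ± 0.53, and Sspo, which encodes SCO-spondin, was at least 8.04-fold lower. Vim, the intermediate filament vimentin, was not called, with 14.01 ± 0.21 in neurospheres and 13.99 ± 0.11 in LVW cells (SD, n = 3 each), a change of 0.02 ± 0.35. Igfbp5 (-0.01 ± 0.36) and the gap junction gene Gja1 (-0.65 ± 0.37) were also not called. The 2 members called higher were Ank3, an adaptor of the membrane skeleton (2.24 ± 0.39, adjusted p = 0.00561), and Fabp7, a lipid carrier of radial glia (at least 3.89-fold, adjusted p = 0.00392). The Fabp7 probe was detected on 0 SC arrays and on 0 radial glia arrays of the study.

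Transcription factors of body region differed between the groups, which come from spinal cord and forebrain. Hox genes, which specify position along the trunk, were called higher for 13 of 16 members tested (81.2%, against 11.5% of all genes) and lower for 0, with a median of 5.18, or 3.94 with genes at their bounds. Hoxa7 had 12.99, 13.16 and 12.71 in neurospheres and 4.72, 4.64 and 4.76 in LVW cells, and was at least 143-fold higher (adjusted p = 2.41e-05). Its level in SC ependymal cells was 13.45 to 13.48. Hoxa5 was at least 113-fold, Hoxc6 at least 64.0-fold and Hoxb7 at least 52.8-fold higher. The 13 called genes were detected on 0 LVW arrays. They met the detection rule through the neurosphere arrays alone, so the share called and the median were largely set by that rule. Of the 33 Hox genes on the array, neurosphere replicates 1, 2 and 3 detected 16, 17 and 24, LVW arrays 1 to 2 and SC arrays 17 to 20. Replicate 3, the brightest array, had the lowest summed Hox signal of its group (19823, against 34537 and 39542). Levels were not the same in neurospheres and SC ependymal cells for every gene. Hoxb5 had 9.33, 9.58 and 9.30 in neurospheres and 11.10 to 11.42 in SC ependymal cells, and Hoxa9 had 7.73, 6.75 and 7.11 in neurospheres and 5.48 to 5.92 in SC ependymal cells.

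Of the 9 tested factors of the spinal cord and ventral neural tube, 4 were called higher (44.4%, against 11.5% of all genes) and 0 lower. The median was 0.03. Olig2, Nkx6-1 and Nkx2-2 were detected on 0 LVW arrays and met the detection rule through the neurosphere arrays alone. The share called was therefore largely set by that rule. Nkx6-1 was at least 10.9-fold higher and was higher still in SC ependymal cells, with 9.05, 8.63 and 10.05 in neurospheres, 4.62, 4.61 and 4.55 in LVW cells and 11.64 to 11.90 in SC cells. Nkx2-2, a factor of ventral progenitors, was at least 6.20-fold higher and was detected on 0 SC arrays. Ptch1, a receptor and target of hedgehog signalling, changed by 2.47 ± 0.59 (adjusted p = 0.0199), but was not called without neurosphere replicate 1 or 2 or without LVW replicate 1 or 2 (adjusted p up to 0.0858). Of the 11 tested forebrain factors, 3 were called lower (27.3%) and 0 higher, with a median of -1.01. The lower count was 5 with genes required on all 3 arrays of a group, 5 with the mean over a gene's probes and 6 when all 12 arrays shared 1 estimate of spread. Dlx2, of the ventral forebrain, had 4.49, 4.52 and 4.46 in neurospheres and 10.38, 9.41 and 10.52 in LVW cells, and was at least 22.7-fold lower. Otx1 was at least 8.59-fold lower, and Dlx1 changed by -2.56 ± 0.44. Dlx2 and Otx1 were detected on 0 SC arrays and on all 3 radial glia arrays. Both met the detection rule through the LVW arrays alone.

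Genes of the dividing cell were higher in neurospheres. In the DNA replication list 17 of 38 members tested were called higher (44.7%, against 11.5% of all genes) and 1 lower. The median was 1.77 (1.66 with genes at their bounds). The higher count was 9 without neurosphere replicate 2, and 7 of 47 members without the detection rule. Members such as Pole met that rule through the neurosphere arrays alone, so the share called was in part set by it. Mcm5, a subunit of the replicative helicase, had 11.19, 12.45 and 11.85 in neurospheres and 4.45, 4.60 and 6.23 in LVW cells, a change of 6.73 ± 0.60 (adjusted p = 0.000243). SC ependymal cells had 8.33 to 9.75. Pole, the leading strand polymerase, was at least 12.8-fold higher. Fen1, the flap endonuclease, changed by 4.19 ± 0.60, and Rrm2, of ribonucleotide reductase, by 3.52 ± 0.81 (adjusted p = 0.0171), which was not called without LVW replicate 2 (adjusted p up to 0.096 over the alternatives). Pcna changed by 1.85 ± 0.55 (adjusted p = 0.0443). The member called lower was Chaf1a, of the chromatin assembly factor (-2.5 ± 0.58, adjusted p = 0.0178), while its partner Chaf1b was at least 4.38-fold higher. The Chaf1a call was lost without neurosphere replicate 1 or 2 or LVW replicate 2 (adjusted p up to 0.0744).

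Mitotic genes followed the same direction, with 21 of 37 called higher (56.8%, against 11.5% of all genes) and 1 lower. The median was 2.76 (2.47 with genes at their bounds). Neurospheres detected 35 to 46 of the 56 list members on the array and LVW arrays 17 to 25. Members such as Cdca5 met the detection rule through the neurosphere arrays alone, so the share called was in part set by that rule. Without the rule, 11 of 56 were called higher. Kif23, a kinesin of the central spindle, had 11.61, 12.80 and 11.21 in neurospheres and 4.53, 5.89 and 8.06 in LVW cells, and changed by 5.71 ± 0.90 (adjusted p = 0.00355). The LVW arrays spread over more than 3 units, but the groups did not overlap. Cdca5, which encodes sororin, was at least 39.3-fold higher, with 10.14, 11.84 and 11.30 in neurospheres and 4.53, 4.58 and 4.58 in LVW cells. Cdca8, of the chromosomal passenger complex, changed by 5.09 ± 0.83 and Nusap1, a spindle protein, by 5.01 ± 0.78. Cdk1, the kinase that drives entry into mitosis, was at least 4.81-fold higher, and the factor Foxm1 at least 5.03-fold higher. Pttg1, which encodes securin, was the member called lower (-1.42 ± 0.41, adjusted p = 0.0423). Its call was lost without any 1 of the 6 arrays (adjusted p up to 0.108). Among D cyclins, CDKs and their inhibitors 7 of 16 were called higher (43.8%) and 0 lower, with a median of 1.85. This count was 3 without neurosphere replicate 1, 3 without neurosphere replicate 2 and 4 without LVW replicate 3. Ccnd1, cyclin D1, had 13.18, 13.65 and 14.11 in neurospheres and 4.99, 8.39 and 8.06 in LVW cells, a change of 6.50 ± 0.89 (adjusted p = 0.00185), and its other 4 kept probes changed by 2.60 to 4.57. The inhibitor Cdkn2c rose with it (4.06 ± 0.46, adjusted p = 0.000779).

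The CHR element, with the letters TTTGAA, is a known site in promoters of mitotic genes, and those promoters are shown for that reason. Of the 21 mitotic genes called higher, 18 had a promoter, and 7 of the 18 held TTTGAA on either strand in the 250 bases upstream of the start site (38.9%). Among all tested genes with a promoter 843 of 6904 held it (12.2%), and 4934 of 27025 in the whole table (18.3%). The 7 genes were Cdc20, Cdca5, Cdk1, Cep55, Kif22, Prc1 and Smc2. The CCAAT box, searched as CCAAT on either strand, was present in 13 of the 18 (72.2%), against 2799 of 6904 tested genes (40.5%). In the replication list, 3 of 15 promoters held TTTGAA. The promoter of Cdca5 (chr19:6084847-6085096, plus strand) held a pair of matches, the first 17 bases before the start site, and that of Prc1 (chr7:80294226-80294475, plus strand) held 1, 30 bases before it. Both are given 5′ to 3′ with TTTGAA in capitals, from RefSeq on GRCm38.p6.
Cdca5: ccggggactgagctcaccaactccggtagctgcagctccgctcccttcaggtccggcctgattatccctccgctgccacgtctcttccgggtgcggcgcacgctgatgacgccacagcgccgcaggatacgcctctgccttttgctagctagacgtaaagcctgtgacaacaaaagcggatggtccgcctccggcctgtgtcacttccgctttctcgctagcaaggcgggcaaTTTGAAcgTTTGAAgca
Prc1: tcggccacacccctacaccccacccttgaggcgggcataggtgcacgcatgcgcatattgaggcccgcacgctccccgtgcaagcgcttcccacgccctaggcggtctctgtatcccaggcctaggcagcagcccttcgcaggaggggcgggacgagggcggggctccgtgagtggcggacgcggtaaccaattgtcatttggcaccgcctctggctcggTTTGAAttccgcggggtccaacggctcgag

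Growth factor receptors and genes of the ERK response were called higher for 11 of 21 members (52.4%) and lower for 4, with a median of 2.09. Egfr, the receptor of EGF, had 10.88, 10.71 and 10.98 in neurospheres and 5.10, 4.93 and 6.06 in LVW cells, a change of 5.49 ± 0.43 (adjusted p = 0.00013). The SC ependymal arrays had 4.94 to 6.22, so that Egfr was low in both groups of sorted ependymal cells. Dusp6, a phosphatase that ERK signalling induces and that acts back on ERK, had 13.17, 12.95 and 11.79 in neurospheres and 7.43, 4.55 and 6.44 in LVW cells, and changed by 6.50 ± 0.77. Dusp4, of the same family, changed by 4.84 ± 0.43. The ETS factors Etv5, Etv1 and Etv4, known ERK targets, were at least 19.1-fold, 8.56-fold and 5.80-fold higher, and Spry4, a feedback inhibitor of the pathway, at least 6.48-fold higher. The ligand Egf itself was lower (-2.60 ± 0.46, adjusted p = 0.00571), with a second probe at -0.47 that was not called. Fgfr2 (-1.48 ± 0.41) and Ntrk2 (-1.64 ± 0.48) were called lower only narrowly, and leaving out any of 6 arrays for Fgfr2 or 5 for Ntrk2 lost the call (adjusted p up to 0.137 and 0.138). Without neurosphere replicate 1 the list held 7 higher members, and without neurosphere replicate 1 or 2 or LVW replicate 2 it held 1 lower member, or 2 without neurosphere replicate 3.

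Oligodendrocyte lineage factors were among the largest changes of the whole comparison. Of 14 progenitor genes of this lineage 8 were called higher (57.1%, against 11.5% of all genes) and 0 lower. The median was 2.26 (1.41 with genes at their bounds), and 5 were called higher without neurosphere replicate 1 or without replicate 3. Neurospheres detected 12 to 15 of the 18 list members on the array and LVW arrays 5 to 7. Members such as Olig2 met the detection rule through the neurosphere arrays alone, so the share called was in part set by that rule. Olig2 had 12.62, 12.92 and 12.42 in neurospheres and 4.76, 4.87 and 4.52 in LVW cells, and was at least 116-fold higher (adjusted p = 2.41e-05). In SC ependymal cells it had 4.58, 6.83 and 5.80. Olig1 had 14.20, 14.19 and 14.16 in neurospheres and 10.45, 9.84 and 7.16 in LVW cells, and changed by 5.03 ± 0.81 (adjusted p = 0.00403). It was uneven in SC ependymal cells, with 4.64, 11.62 and 11.99. Cntn1, an adhesion protein, changed by 4.29 ± 0.66 and Sox8 by 3.15 ± 0.77. Sox8 was not called without any 1 of the neurosphere arrays or without LVW replicate 2 (adjusted p up to 0.114). Pdgfra, the receptor that marks oligodendrocyte progenitors, did not pass the test (1.05 ± 1.07), nor did Sox10 (1.15 ± 0.82) or Cspg4 (0.49 ± 0.38).

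**Figure D3:**
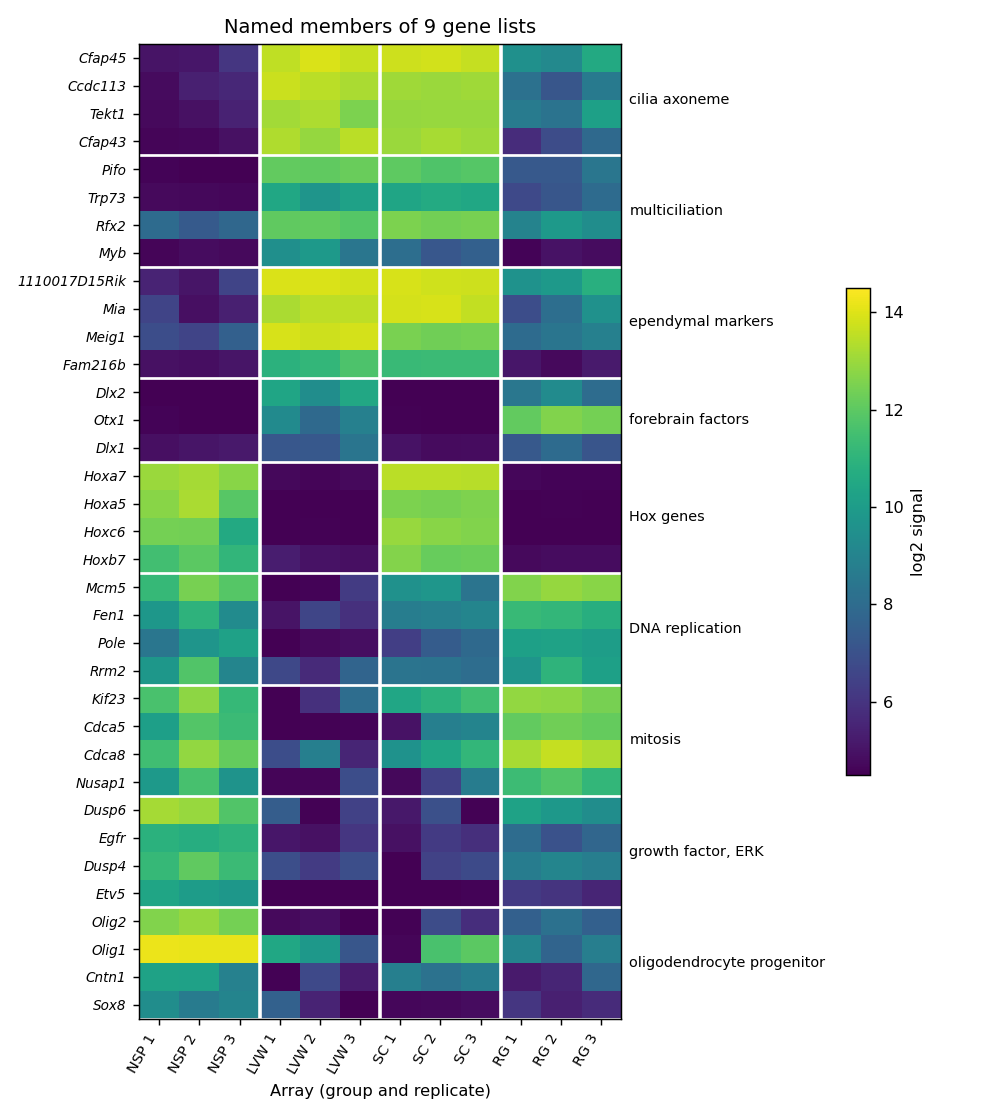
Log2 signal of up to 4 named members, all called in the same direction, of each of 9 gene lists (rows) on the 12 arrays (columns), in neurospheres (NSP), LVW ependymal cells (LVW), SC ependymal cells (SC) and radial glia (RG). The cilia axoneme rows and the ependymal marker rows, which show members called lower only, are darker on the 3 neurosphere arrays than on all 6 ependymal arrays, Hox rows are bright in neurospheres and SC, and rows of DNA replication and mitosis are brighter in neurospheres than in LVW cells.

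Genes used to mark neural stem and progenitor cells were called higher for 9 of 24 members (37.5%) and lower for 1, with a median of 1.17. Besides Egfr these included tenascin C (Tnc), a matrix protein of stem cell niches, which was at least 13.3-fold higher and had 9.02, 10.07 and 9.5 in neurospheres, against 4.86, 4.62 and 4.74 in LVW cells. Pbk, a mitotic kinase, changed by 3.80 ± 0.77 (adjusted p = 0.0107). Sox11 changed by 2.5 ± 0.62 (adjusted p = 0.0228) and lost its call without neurosphere replicate 1 or 2 or LVW replicate 1 or 2 (adjusted p up to 0.0942). The classical markers were not among those called. Nes, nestin, had 7.77 ± 1.62 in neurospheres and 7.71 ± 1.40 in LVW cells (SD, n = 3 each), a change of 0.06 ± 0.97. Sox2 had 6.88 ± 0.25 in neurospheres and 7.19 ± 1.54 in LVW cells, a change of -0.31 ± 0.74. Sox9 had 12.34 ± 0.15 in neurospheres and 13.17 ± 0.46 in LVW cells, a change of -0.82 ± 0.40. Nr2e1, which encodes the stem cell factor TLX, was lower (-2.29 ± 0.49, adjusted p = 0.0126), a call lost only without neurosphere replicate 1 (adjusted p = 0.0527).

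**Figure D4:**
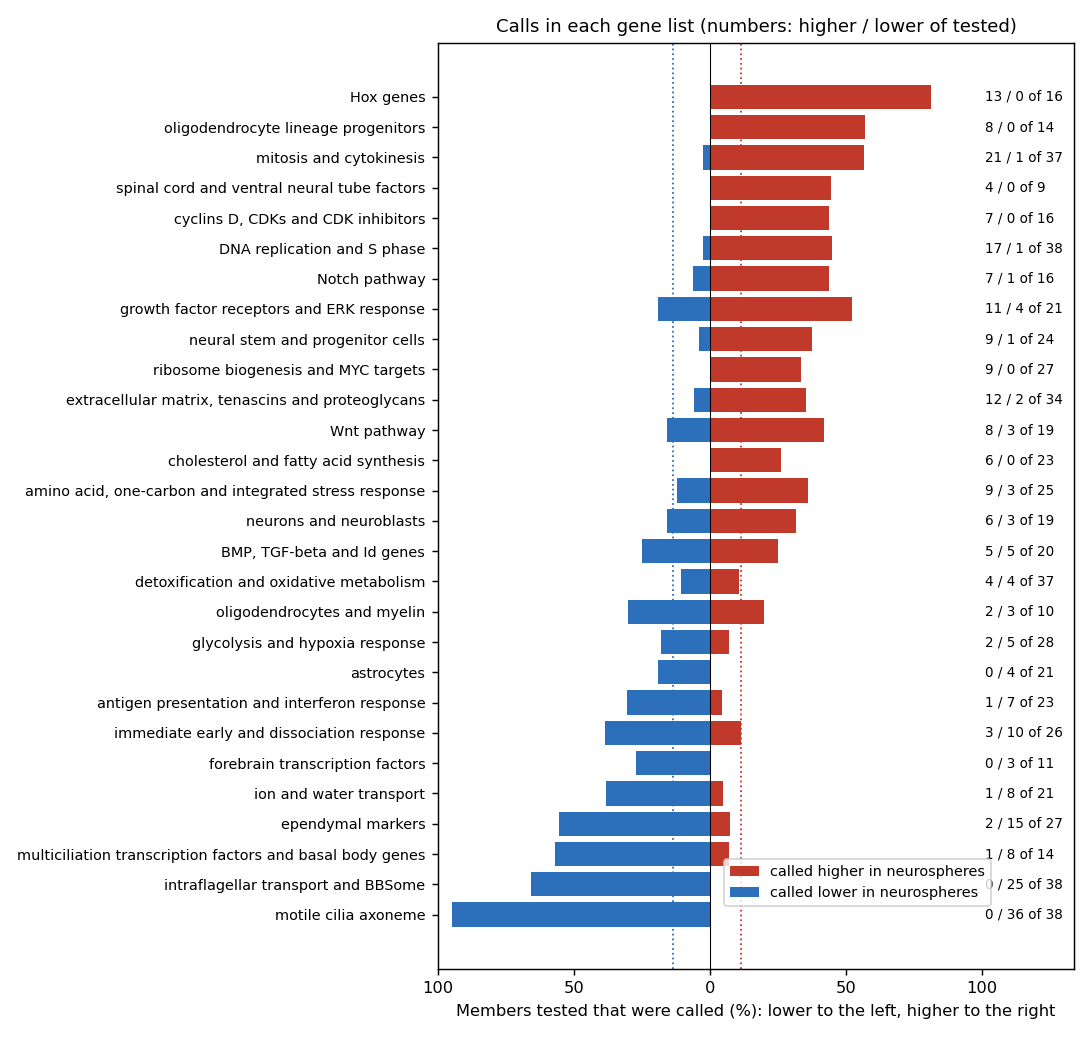
Percentage of tested members called higher (red, to the right) and lower (blue, to the left) in neurospheres for the 28 lists with at least 9 members tested, with the counts at the right. Dotted lines mark the 11.5% of all genes called higher and the 13.4% called lower, and the lists run from Hox genes at the top (13 of 16 higher) to the motile axoneme at the bottom (36 of 38 lower). The 13 Hox genes met the detection rule through the neurosphere arrays alone. In other lists too, members detected in a single group met that rule through that group.

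In the Notch pathway, through which neighbouring cells hold each other undifferentiated, 7 of 16 members were called higher (43.8%) and 1 lower, with a median of 1.30 (0.93 with genes at their bounds). Hes6, which opposes HES1, had 14.07, 14.03 and 13.82 in neurospheres and 11.16, 9.6 and 10.23 in LVW cells (3.64 ± 0.48, adjusted p = 0.00155). Nrarp, a feedback regulator, changed by 3.47 ± 0.64, and the noncanonical ligand Dlk1 by 3.74 ± 0.71, with a second Dlk1 probe at 0.21. The receptor Notch1 (1.1 ± 0.39) and the target Hes1 (0.65 ± 0.51) were not called. Hey1, another target, was lower (-2.75 ± 0.36, adjusted p = 0.00148).

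In the BMP and TGF-beta list 5 of 20 members were called higher and 5 lower (25% each), with a median of 0.58. The targets split within the Id family. Id4 had 4.97, 4.55 and 4.71 in neurospheres and 11.85, 11.22 and 10.32 in LVW cells and was at least 46.5-fold lower, while Id3 had 10.18, 10.02 and 10.24 in neurospheres, against 7.71, 7.21 and 7.91 in LVW cells, and changed by 2.53 ± 0.38 (adjusted p = 0.00273). The ligand Bmp6 was at least 10.6-fold lower, and the receptor Tgfbr2 changed by -3.06 ± 0.44. The receptor Bmpr1b was higher (3.52 ± 0.65, adjusted p = 0.00681). Bmp7 (2.99 ± 0.72), Chrd (2.38 ± 0.64) and Tgfbr3 (-2.12 ± 0.62) were called but lost the call without 4, 5 and 5 of the single arrays in turn (adjusted p up to 0.1, 0.156 and 0.142). Leaving out an array gave 2 or 3 higher members, except LVW replicate 3, and 3 lower members without neurosphere replicate 1 or 2 or LVW replicate 1 or 3.

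In the Wnt list 8 of 19 members were called higher (42.1%) and 3 lower, with a median of 0.81. The higher count was 4 without neurosphere replicate 1 and 5 without neurosphere replicate 2 or LVW replicate 2. The receptors Fzd5 (4.09 ± 0.83) and Fzd7 (3.36 ± 0.56) were higher, and Lgr5, a receptor of R-spondins, was at least 4.75-fold higher and detected on 0 arrays of the other groups. Wnt5a (2.70 ± 0.71) and Wnt7a (2.35 ± 0.67) were called, with adjusted p up to 0.155 and 0.188 without some of the arrays (neurosphere replicates 1 and 2 for both, replicate 3 for Wnt7a and LVW replicate 2 for Wnt5a), and a second Wnt5a probe changed by -0.05. The 3 lower members were the secreted modulators Dkk3 and Sfrp1 and the ligand Wnt4. Dkk3 had 5.07, 6.73 and 4.63 in neurospheres and 13.17, 13.11 and 12.70 in LVW cells, a change of -7.51 ± 0.59 (adjusted p = 0.00013). Sfrp1, which binds Wnt ligands, changed by -5.58 ± 0.48, and Wnt4 was at least 2.34-fold lower, a call lost without neurosphere replicate 1 or 2 (adjusted p up to 0.0543).

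Genes of biosynthesis leaned towards neurospheres. Of 25 members of the amino acid and stress response list 9 were called higher (36.0%) and 3 lower, with a median of 1.38, but only 5, 3 and 5 were called higher without neurosphere replicate 1, neurosphere replicate 2 and LVW replicate 2, and 0 and 1 were called lower without neurosphere replicate 1 and 2. Slc7a5, a carrier of large neutral amino acids, had 11, 10.83 and 11.31 in neurospheres and 4.78, 6.58 and 5.80 in LVW cells (5.33 ± 0.52, adjusted p = 0.000368). Mthfd2, a mitochondrial enzyme of one-carbon metabolism, changed by 3.82 ± 0.49. The stress genes Trib3 (-3.09 ± 0.80) and Atf3 (-2.37 ± 0.55) were called lower, but neither without neurosphere replicate 1 or 2, Trib3 also not without LVW replicate 3 and Atf3 not without LVW replicate 1 (adjusted p up to 0.127 and 0.0775). Ribosome biogenesis genes were called higher for 9 of 27 (33.3%) and lower for 0, with a median of 0.82, and for 3 without neurosphere replicate 1, 2 without neurosphere replicate 2 and 4 without LVW replicate 1. Pes1, a nucleolar factor, was at least 5.77-fold higher. Nolc1 (1.88 ± 0.38) and Nop58 (2.07 ± 0.45) had smaller changes, and neither was called without neurosphere replicate 2, nor Nolc1 without replicate 1 (adjusted p up to 0.057 and 0.0629). Cholesterol and fatty acid genes were called higher for 6 of 23 (26.1%) and lower for 0, with a median of 0.76. Cyp51, a demethylase of sterol synthesis, had 13.10, 13.91 and 11.62 in neurospheres and 8.61, 7.99 and 9.96 in LVW cells (4.03 ± 0.73, adjusted p = 0.00664). Scd1, which desaturates fatty acids, changed by 3.26 ± 0.49 and Nsdhl by 2.76 ± 0.52, while the call of Elovl6 (3.40 ± 0.55) rested on its probe, since another changed by -0.47.

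Of the glycolysis and hypoxia genes, 2 of 28 were called higher (7.14%) and 5 lower (17.9%), with a median of -0.03. These shares lay near those of all genes (11.5% and 13.4%). The higher count was 6 when all 12 arrays shared 1 estimate of spread and 5 with array weights. Ldha, lactate dehydrogenase A, was higher (2.41 ± 0.39, adjusted p = 0.00402). Slc2a1, the glucose transporter GLUT1, had 9.67, 8.69 and 10.06 in neurospheres and 13.59, 13.46 and 12.76 in LVW cells (-3.79 ± 0.49, adjusted p = 0.00143). Car9, a membrane carbonic anhydrase induced by hypoxia, was at least 24.2-fold lower. Its level in SC ependymal cells was 4.73 to 5.27, on arrays that did not detect it. Pdk1 (-3.26 ± 0.67) was not called without neurosphere replicate 1 or 2 (adjusted p up to 0.0648), and P4ha2, a collagen hydroxylase, was at least 7.67-fold lower.

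Several genes low in neurospheres and high in LVW cells were also low in SC ependymal cells. Ces1d, a carboxylesterase, had 4.53, 4.52 and 4.47 in neurospheres, 11.23, 11.53 and 11.99 in LVW cells and 4.52 to 4.58 in SC cells, and was at least 63.5-fold lower in neurospheres than in LVW cells. Cyp4f15, of the cytochrome P450 family, changed by -6.55 ± 0.45 and was detected on 0 SC arrays. In its list of detoxification and oxidative metabolism 4 of 37 members were called higher and 4 lower (10.8% each, near the share of all genes), with a median of -0.24. The higher count was 2 without neurosphere replicate 1 and the lower count 7 without neurosphere replicate 3. Aldh1a1, which makes retinoic acid, was at least 39.1-fold higher, with 11.10, 10.48 and 11.67 in neurospheres, 4.56, 5.25 and 4.79 in LVW cells and 7.82 to 8.89 in SC cells. Among ion and water transport genes 8 of 21 were called lower (38.1%) and 1 higher, with a median of -1.28, and 5 were lower without neurosphere replicate 2 or without LVW replicate 2. Slc39a4, a zinc importer, had 4.74, 4.85 and 4.74 in neurospheres and 12.66, 12.92 and 12.10 in LVW cells, and was at least 125-fold lower. The SC ependymal arrays had 6.23, 8.53 and 4.83. Slc22a4, a carrier of organic cations, was at least 5.19-fold lower. The water channel Aqp4 did not pass the test (-1.38 ± 0.66).

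Matrix and proteoglycan genes were called higher for 12 of 34 members (35.3%) and lower for 2, with a median of 0.62. The higher count was 6 without neurosphere replicate 1 and 7 without replicate 2. Sdc3, the syndecan of the nervous system, had 12.58, 12.44 and 12.09 in neurospheres and 7.66, 8.23 and 7.46 in LVW cells (4.59 ± 0.39, adjusted p = 0.000207). Gpc2, a glypican, was at least 22.6-fold higher, and Col16a1 changed by 5.47 ± 0.77. The lower members were Col4a2, of the basement membrane (-3.17 ± 0.41, adjusted p = 0.00153), and Sparc (-2.01 ± 0.42, adjusted p = 0.012), whose call was lost without neurosphere replicate 2 (adjusted p = 0.0522).

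Antigen presentation and interferon genes were called lower for 7 of 23 members (30.4%) and higher for 1, with a median of -0.86, and 4 were lower without neurosphere replicate 1, neurosphere replicate 2 or LVW replicate 1. Ifi27 changed by -3.49 ± 0.64 and Ifit3, both induced by interferon, was at least 4.60-fold lower. B2m, the light chain of class I molecules, went the other way, with 11.58, 11.35 and 10.33 in neurospheres and 7.52, 6.63 and 8.66 in LVW cells (3.48 ± 0.62, adjusted p = 0.00587), whereas the heavy chain gene H2-D1 was lower (-1.24 ± 0.35, adjusted p = 0.0399). Immediate early genes, which respond within minutes to stimuli that include tissue dissociation, were called lower for 10 of 26 (38.5%) and higher for 3, with a median of -1.05. The lower count was 4, 3, 6 and 4 without neurosphere replicates 1 and 2 and LVW replicates 1 and 2, and the higher count was 1 without neurosphere replicate 1 or 2 or LVW replicate 2. Ccn1 had 5.17, 4.64 and 5.02 in neurospheres and 9.84, 10.07 and 9.14 in LVW cells, and was at least 17-fold lower. Rhob, a small GTPase, changed by -3.97 ± 0.48. Fos, of the AP-1 complex, changed by -2.24 ± 0.54 (adjusted p = 0.0204), and Egr3 was higher (3.46 ± 0.70, adjusted p = 0.0101), with a second probe at 0.31. The neurospheres were not sorted and the LVW cells were sorted from tissue, so these values stand beside a difference in handling whose part was not tested.

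Markers of other cell types were read on every array, since the neurospheres were unsorted and the sorted fraction could hold other cells. Microglia and leukocyte markers had a summed signal of 606 to 675 in neurospheres, with 0 to 2 of 23 genes detected, and of 3638 to 6169 in LVW cells, with 3 to 4 detected. Only Laptm5 (-6.20 ± 0.61) and Ly86 (at least 3.38-fold lower) were tested, and both were called. With so few markers detected in neurospheres, a member met the detection rule mostly through LVW arrays. The direction of these calls was therefore largely set by that rule. Choroid plexus markers had 1349 to 1945 in neurospheres and 6672 to 10684 in LVW cells over 22 genes, and 5 of 6 tested were called lower. The same limit applies to that count, since 3 to 7 of the 22 were detected in neurospheres and 8 to 11 in LVW cells. Clic6, a chloride channel protein of this epithelium, changed by -6.58 ± 0.49 and Folr1, a folate receptor, was at least 14.5-fold lower. Endothelial markers had 3600 to 7537 in neurospheres and 11714 to 17492 in LVW cells over 27 genes. At the levels given above, Slc2a1 alone made up most of each LVW sum. The genes detected numbered 6 to 10 in neurospheres and 6 to 13 in LVW cells. Of 8 tested, 3 were called lower (37.5%) and 0 higher, with a median of -0.33. The lower calls were led by Slco1c1, a thyroid hormone carrier (at least 9.78-fold), and Slc2a1. Vwf, the third, changed by -1.97 ± 0.42, a call lost without neurosphere replicate 1 or 2 (adjusted p up to 0.059). The part of these cells in the values above was not tested.

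Myelin markers had sums of 4984 to 11118 in neurospheres and 11628 to 18667 in LVW cells, which lay close together without overlapping. Of 10 tested, 2 were called higher and 3 lower, with a median of 0.01. Over all genes the shares were 11.5% and 13.4%, and with 10 members tested the list is not shown to differ from them. Mbp, myelin basic protein, had 4.65, 4.58 and 4.75 in neurospheres and 13.16, 11.73 and 12.23 in LVW cells, and was at least 110-fold lower, while Mobp was at least 29.1-fold lower. Trf, an iron carrier, changed the other way (at least 2.99-fold higher). Its call was lost without neurosphere replicate 1 or LVW replicate 1 or 2 (adjusted p up to 0.0838). Astrocyte markers had similar sums, 43814 to 63595 in neurospheres and 38842 to 51739 in LVW cells, with 4 of 21 called lower and 0 higher. Gfap, the intermediate filament of astrocytes, was detected on 0 neurosphere arrays and was at least 5.30-fold lower. Gpr37l1 was called (-4.01 ± 0.96) but not without neurosphere replicate 1 or 2 or LVW replicate 1 or 2 (adjusted p up to 0.114). Slc1a3, the glutamate transporter GLAST, was not called, at 13.74 ± 0.09 in neurospheres and 13.17 ± 0.39 in LVW cells (SD, n = 3 each).

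Markers of neurons and neuroblasts summed to 23884 to 27123 in neurospheres and 7545 to 9652 in LVW cells. A sum follows its brightest genes, such as Camk2b in neurospheres. The mean log2 signal over the 36 genes overlapped, with 6.26 to 6.37 in neurospheres and 6.01 to 6.4 in LVW cells. Of 19 tested, 6 were called higher (31.6%) and 3 lower (15.8%), against 11.5% and 13.4% of all genes. The median change was 0.14. The 3 lower were Dlx2, Dlx1 and the sort antigen gene Cd24a. Camk2b, a subunit of a calcium-dependent kinase, had 13.34, 13.47 and 13.88 in neurospheres and 8.73, 9.33 and 9.78 in LVW cells (4.28 ± 0.42, adjusted p = 0.000385). Gap43, of growing axons, changed by 3.27 ± 0.62, and Snap25, of synaptic vesicle fusion, was at least 4.60-fold higher. Mural cell markers had 4275 to 18432 in neurospheres and 16778 to 21502 in LVW cells, and 1 of 4 was called, the Notch3 receptor (at least 1.68-fold higher), which was lost without neurosphere replicate 1 or LVW replicate 1 or 2 (adjusted p up to 0.115). Fibroblast and meningeal markers had 2861 to 5645 in neurospheres and 853 to 1659 in LVW cells, and 2 of 4 were called higher and 1 lower. Ptgds, prostaglandin D synthase, was at least 12.7-fold higher and the complement inhibitor Serping1 changed by -4.09 ± 0.55. Fbln1 was called higher on its brightest probe (5.02 ± 0.67), but its other 3 kept probes changed by 3.40, -3.47 and -2.29, so that its direction is uncertain. Schwann cell markers had 1635 to 2453 in neurospheres and 4409 to 6614 in LVW cells, with 1 of 5 called higher and 2 lower. For lists with only 4 or 5 members tested no share is read against that of all genes. Scn7a changed by -2.66 ± 0.57, a call lost without neurosphere replicate 2 (adjusted p up to 0.0581). Pmp22 changed by -2.10 ± 0.52 and was not called without neurosphere replicate 1 or 2 or LVW replicate 2 or 3 (adjusted p up to 0.0848). Egr2 changed by 3.45 ± 0.92 and was called in only 1 of the 6 fits that left out an array, the one without LVW replicate 1 (adjusted p up to 0.146).

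**Figure D5:**
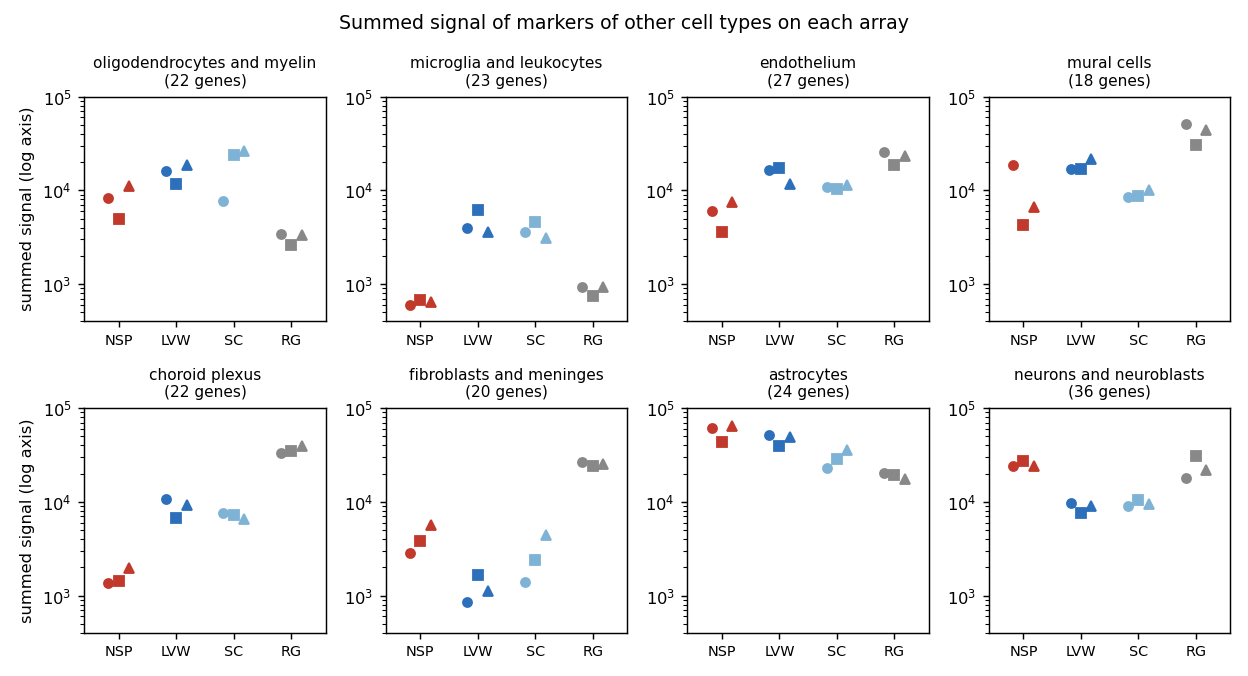
Summed signal (log axis) of the markers of 8 other cell types on each array, in neurospheres (NSP), LVW ependymal cells (LVW), SC ependymal cells (SC) and radial glia (RG), with a symbol for each replicate. Microglia, choroid plexus and endothelial sums were lower on all 3 neurosphere arrays than on any LVW array, and neuronal sums were higher. A sum follows its brightest genes. Between neurospheres and LVW cells, the mean log2 signal of neuronal markers and the number of endothelial markers detected overlapped.

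The largest changes outside the lists were read by the same rule. Hs3st2, a heparan sulfate sulfotransferase, had 13.31, 12.71 and 12.77 in neurospheres and 4.70, 4.67 and 4.66 in LVW cells, and was at least 141-fold higher (adjusted p = 2.41e-05). It was detected on 0 arrays of SC ependymal cells and of radial glia. Chst7, a sulfotransferase that acts on chondroitin, had 11.85, 12.08 and 12.20 in neurospheres and 4.49, 4.52 and 4.49 in LVW cells and was at least 76.1-fold higher. Among genes detected on all 6 arrays the largest rise was that of Hip1, a clathrin adaptor, with 13.61, 13.78 and 13.32 in neurospheres and 9.22, 7.77 and 7.27 in LVW cells (5.48 ± 0.56, adjusted p = 0.000434). Masp1, a protease of the lectin pathway of complement, changed by 4.63 ± 0.43 and Cdca7l, a nuclear protein related to the MYC target Cdca7, by 4.58 ± 0.50. Masp1 was high in radial glia too, with a mean of 12.86, whereas Hip1 had 10.81 there.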

How the data were processed

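Per the labels' protocols, the RNA went through a 2-round amplification that added biotin. Per the submitters' processing notes, the tools were BeadStudio and lumi. The deposited raw table holds, per the file headers, an intensity and a detection p-value for each probe on each array. The authors' processed table is deposited on a log2 scale and was used as an alternative.

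Intensities were background corrected with limma 3.58.1 in R 4.3.3 (neqc, offset of 16, background estimated through the detection p-values), quantile normalised over 12 arrays and taken to log2. For a gene with several kept probes, the brightest on average over the 6 arrays stood for it. A single gene symbol was given for 29976 probes, several for 10 and none for 16646. Unnamed probes were not used here. limma (lmFit, eBayes, two-sided) was fitted to the 6 arrays without covariates, with Benjamini-Hochberg adjustment over all genes. A change can therefore include arrays on which the gene was below detection. A bound compares the mean of the higher group with a floor averaged over the lower group's arrays, each array's floor being the dimmest signal it detected, unless the probe itself was brighter. The number of arrays limits the precision. The fit and its calls were tested on simulated data.

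Members, gene lists and tests were chosen with earlier results of these data known. Named genes were those of the sort antigens, the 6 largest changes and the 6 largest bounds in each direction, and, for every list and direction, the called members of largest change (at most 4). Others, such as members not called, were named after their values were seen. Replicate numbers did not pair the arrays: deviations of same-numbered arrays from their group means correlated at -0.036, -0.201 and -0.248.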

Additional observations from a re-analysis of the deposited data

How the results depend on the processing

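The number of genes called was 2092, of which 969 were higher in neurospheres and 1123 lower. It was 3223 (1673 higher, 1550 lower) when all 12 arrays shared 1 estimate of spread, and 3508 (1807 higher, 1701 lower) with array weights, which gave neurosphere replicate 1 a weight of 5.028 and replicate 3 a weight of 0.329. With no filter on dim probes 17711 genes were tested, 1541 were called and 631 were higher. Leaving out each array in turn gave 1275 to 2366 called genes, 483 to 1072 higher and 792 to 1340 lower, the lowest being without neurosphere replicate 1. Calls stayed within 1.5 times the main count under the other alternatives, which were no background correction (1657), another background correction (2142), median scaling (1975), normalising the 6 arrays alone (2089), the authors' values (2055), 2 other filters or summaries (2194 and 2219), a required log2 change of 1 (2092) and a trended robust prior (2185). With the replicate number as a block 1553 genes were called (664 higher, 889 lower), although the labels gave no pairing by number. The block changed no direction among the named genes. Of 168 named genes tested, 111 were called under all 19 alternatives and 0 reversed. With no filter 41 of the 168 named genes lost the call, and without background correction 25 did. List counts that moved by over 1.5 times with no filter all fell. For members called higher they became 7 for DNA replication (main count 17), 11 for mitosis (21), 2 for cyclins and CDKs (7), 5 for stem and progenitor cells (9), 7 for growth factors and ERK (11), 4 for Wnt (8), 2 for BMP (5), 4 for amino acids (9), 3 for cholesterol (6), 2 for detoxification (4) and 0 for immediate early genes (3). For members called lower they became 4 for immediate early genes (10), 3 for BMP (5), 1 for amino acids (3) and 2 for astrocytes (4). Without background correction the higher counts became 11 for DNA replication, 3 for cyclins and CDKs, 5 for Wnt, 2 for BMP and 5 for amino acids, and the lower counts 5 for immediate early genes, 3 for BMP, 1 for amino acids and 4 for antigen presentation (7). Median scaling gave 2 lower members for growth factors and ERK (4) and 5 for ion transport (8). With array weights the higher counts became 11 for cyclins and CDKs and 3 for antigen presentation (1), and the lower counts 5 for amino acids and 7 for detoxification (4). With all 12 arrays matrix genes had 4 lower members (2). The block gave 7 higher for matrix genes (12), 4 for ribosome biogenesis (9) and 5 for Wnt, and lower counts of 1 for growth factors and ERK, 3 for BMP and 5 for ion transport. The cause of the moves was not tested. Of the called genes, 351 had another kept probe and 49 of these a probe of the opposite sign.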

Other observations

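The genes below lie outside the lists, were picked after their values were seen and are given as values of single genes. Sez6l had 11.94, 11.72 and 11.91 in neurospheres and 4.56, 4.63 and 5.90 in LVW cells (6.83 ± 0.47, adjusted p = 8.12e-05 by limma). Brinp2 changed by 6.99 ± 0.54, the endocytic protein Amph by 5.09 ± 0.52, and Gria3, a glutamate receptor subunit, was at least 29.4-fold higher. Chrna4, a nicotinic receptor subunit, changed by 5.12 ± 1.21 (adjusted p = 0.019), with LVW replicate 3 at 9.48 and the other LVW arrays at 4.85 and 4.89. The corepressors Tle2 and Tle6 changed by 6.40 ± 0.65 and 6.95 ± 1.11, and Igfbp3, which binds insulin-like growth factors, was at least 45.6-fold higher and detected on 0 SC arrays.

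Among genes lower in neurospheres, Hp, haptoglobin, had 4.84, 4.75 and 5.17 in neurospheres and 11.30, 11.59 and 11.08 in LVW cells (-6.40 ± 0.37, adjusted p = 4.31e-05), and was detected on 0 SC arrays. Lbp, which binds bacterial lipopolysaccharide, was at least 127-fold lower in neurospheres and Cpn1, a carboxypeptidase of plasma, at least 72.3-fold lower. Tgm2, a transglutaminase, had 7.53, 6.52 and 6.41 in neurospheres, 12.92, 13.45 and 13.11 in LVW cells and a mean of 6.98 in SC cells. H4c11, a histone gene, was lower in neurospheres (-6.18 ± 0.73, adjusted p = 0.000948), opposite to the genes of DNA replication, with neurosphere replicate 3 at 7.27 and the other neurosphere arrays at 4.65 and 5.02.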
